A study of Mus musculus with 6 samples.

Results

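The genes described here are 10 regulators of DNA methylation and of the Polycomb repressive complex 2 (PRC2): the DNA methyltransferases Dnmt1, Dnmt3a and Dnmt3b, the methylcytosine dioxygenases Tet1, Tet2 and Tet3, the methylation reader Uhrf1, and the PRC2 subunits Ezh2, Eed and Suz12. They were found by their feature names, and each occurred once among the 36930 features measured in BM Tregs of 3 CML and 3 naive mice. All 6 mice were Foxp3-DTR-GFP animals at postnatal week 8, in which the Foxp3 locus drives the human diphtheria toxin receptor and GFP. CML mice had received BCR-ABL1-GFP-transduced LSKs, which are lineage-negative Sca-1+ c-Kit+ progenitors, without irradiation, and Tregs were taken on day 15 after CML induction. Naive mice carried the same Foxp3 allele and no leukemia. Tregs were purified by FACS, and the study gated Foxp3+ Tregs within CD4+ T cells. Leukemia cells in this model carry GFP as well, and a CD4 gate would leave out those without CD4. The RNA is bulk RNA, in which fewer cells of a type and less RNA per cell cannot be told apart. Values are RPKM, which scale reads by transcript length and library depth, and thus allow levels of different genes to be compared per length. Where a value is given for every library, the order is that of replicates 1, 2 and 3 of the group.

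DNA methylation is copied at replication by Dnmt1, which Uhrf1 brings to hemimethylated CpG sites, while Dnmt3a and Dnmt3b place methyl groups on unmethylated sites. TET enzymes oxidize methylcytosine and so start its removal. PRC2 places methyl groups on lysine 27 of histone H3 through Ezh2 or its relative Ezh1, and needs Eed and Suz12 for this activity. In Tregs, Tet2 and Tet3 keep regulatory DNA of the Foxp3 locus unmethylated, and Ezh2 is induced on activation and helps activated Tregs to keep their identity.

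The libraries differed in depth. Reads estimated from the step between RPKM values of short RNA features ranged from 829181 to 7613827 in CML libraries and from 5187987 to 9751911 in naive libraries. CML replicate 2 was the shallowest and CML replicate 3 came next with 2286190 reads. The 10 highest features held 50.7% of the summed RPKM of CML replicate 2, compared with 28.5% to 31.3% in the other libraries. The Treg factor Foxp3 was at 398 ± 88.1 and 338 ± 36.3 RPKM in CML and naive Tregs (SD, n = 3 each), and Cd3e at 407 ± 46.8 and 347 ± 42.4 RPKM, so that the defining Treg and T cell markers were high in both groups. Of 10 Treg identity genes, 1 (Tnfrsf18, the costimulatory receptor GITR) was higher at the unadjusted threshold given below, with a limma adjusted p of 0.392, and the median log2 fold change of the list was 0.17. Erythroid markers (11 genes, among them the globins) summed to 41.8 to 253 RPKM in CML libraries and to 5.93 to 31.6 RPKM in naive libraries, without overlap, with Epor at 0 throughout. Neutrophil and myeloid markers (16 genes) summed to 26.1, 226 and 233 RPKM in CML libraries and to 41.9 to 63.9 RPKM in naive libraries. Of the stem and progenitor markers, Gata2 had 2.003, 8.36 and 2.43 RPKM in CML libraries and 0, 0.948 and 0 RPKM in naive libraries (log2 fold change 1.88, limma adjusted p = 0.401), Kit had at most 2.60 RPKM, and Mecom was at 0 in all libraries. These 11 progenitor markers summed to 139 to 194 RPKM in CML libraries and 88.7 to 120 RPKM in naive libraries, mostly from Slamf1, which T cells express too. CD8 T and NK cell markers (7 genes) summed to 81.9 to 108 RPKM and 42.6 to 87.7 RPKM, and B and plasma cell markers (9 genes) to 3.18 to 9.54 RPKM and 10.4 to 11.3 RPKM. The part of these other cells in the values of the 10 genes was not tested.

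None of the 10 genes passed limma with a Benjamini-Hochberg adjusted p under 0.05 and a fold of at least 1.5, the rule by which 24 of 13923 genes tested (0.172%) were called. Dropping the adjustment but keeping the fold, p under 0.05 was met by 0 of the 10 genes and by 8.55% of all genes tested (2.61% higher and 5.94% lower in CML Tregs). These were 363 genes higher and 827 lower, and 624 higher and 590 lower after quantile normalization. CML and naive libraries did not overlap for 3 of the 10 genes, compared with 17.1% of all genes tested. Dnmt1 was higher in every CML library, as were 4.84% of all genes tested, and Tet1 and Tet3 were lower in every CML library, as were 12.2% of all genes tested. The median log2 fold change (CML minus naive, on the log2(RPKM + 1) scale, which understates the change of low genes) was 0.04 over the 10 genes and -0.18 over all genes tested. Folds given below are such log2 fold changes put back on the linear scale, not ratios of mean RPKM. For Uhrf1 the ratio of means was 1.96 and the fold 1.70, and for Tet1 they were 0.485 and 0.562. By mean level, Dnmt1 was the highest of the 10 genes in both groups, and its libraries did not overlap with those of the next gene. Suz12, Ezh2, Tet3, Dnmt3a, Eed and Tet2 formed a middle range from 29.2 to 48.4 RPKM in CML Tregs and from 30.7 to 54.1 RPKM in naive Tregs, in which most neighbors in order overlapped. In CML Tregs the exception was Tet3 above Dnmt3a, and in naive Tregs there was none. Uhrf1, Dnmt3b and Tet1 were the lowest in both groups.

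**Figure D1:**
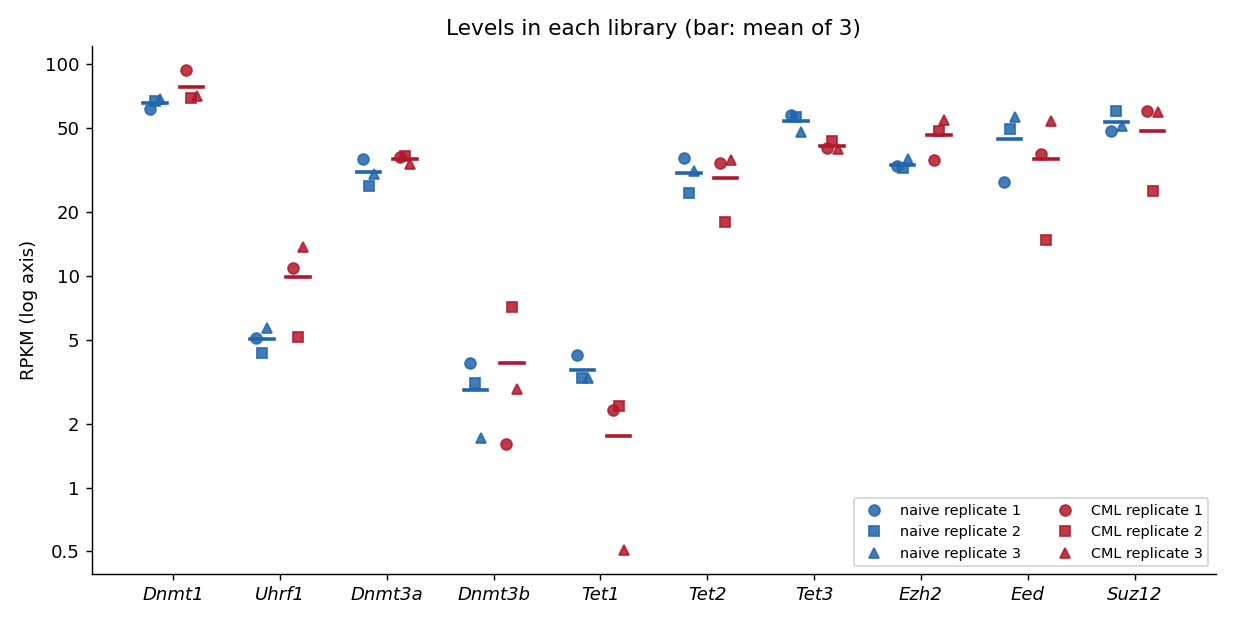
RPKM (log axis) of the 10 genes in each of the 6 libraries, naive in blue and CML in red, with a bar at the mean of 3 libraries. Dnmt1 lay above and Tet1 and Tet3 lay below the naive libraries in all CML libraries, and CML replicate 2 (red square) was the lowest library for Eed, Suz12 and Tet2.

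**Figure D2:**
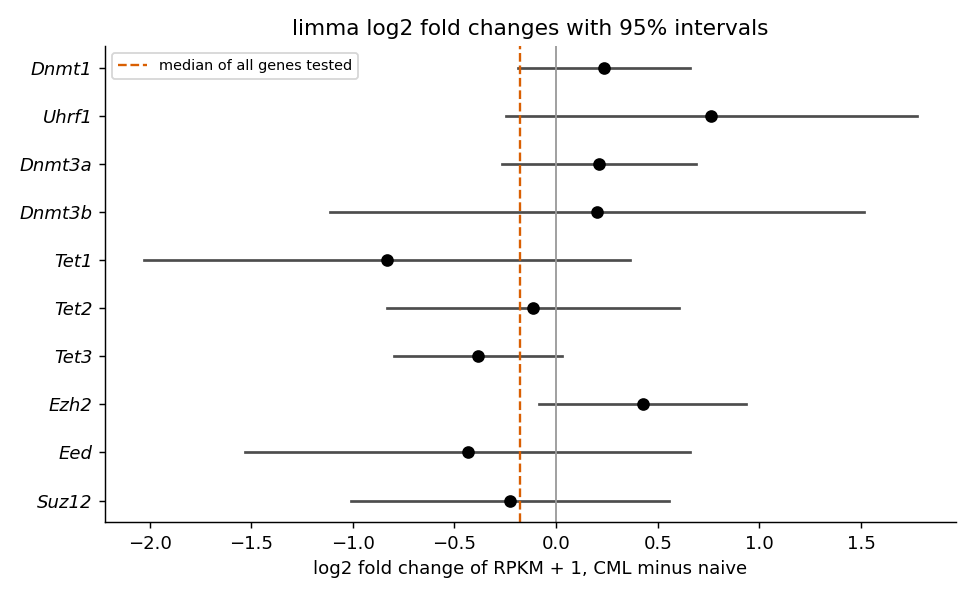
limma log2 fold changes of RPKM + 1 (CML minus naive, points) with 95% intervals (lines) for the 10 genes, beside 0 (gray line) and the median of the 13923 genes tested (-0.18, dashed). All 10 intervals include 0.

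Promoter windows (250 bases before to 50 bases after a RefSeq start, build GRCm38.p6) were available for all 10 genes, with 15 windows in total. These are shown because Dnmt1, Uhrf1 and Ezh2 are transcribed more in cycling cells, in which E2F factors act. A search on both strands for the E2F words TTTCCCGC, TTTCGCGC, TTTGCCGC and TTTGGCGC found a match in windows of 4 of the 10 genes, namely Dnmt1, Uhrf1, Ezh2 and Suz12. A match was present in 2.26% of all 32851 promoter windows, for 4.67% of the 9166 tested genes with a window, and for 11 of 30 genes of a DNA replication list. Each of the words contains CG, and the 15 windows are richer in CpG sites than all promoter windows (medians below). The shares over all windows and all tested genes are therefore not a like-for-like background. The 4 windows follow 5′ to 3′ on the strand of the gene, with the matches in capitals.
Uhrf1: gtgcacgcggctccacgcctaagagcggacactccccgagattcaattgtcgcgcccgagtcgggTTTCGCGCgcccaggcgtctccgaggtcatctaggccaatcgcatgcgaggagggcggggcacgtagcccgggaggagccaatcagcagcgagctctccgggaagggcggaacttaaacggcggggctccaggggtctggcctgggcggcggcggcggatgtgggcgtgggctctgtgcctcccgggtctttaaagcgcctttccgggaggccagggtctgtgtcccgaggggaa
Dnmt1: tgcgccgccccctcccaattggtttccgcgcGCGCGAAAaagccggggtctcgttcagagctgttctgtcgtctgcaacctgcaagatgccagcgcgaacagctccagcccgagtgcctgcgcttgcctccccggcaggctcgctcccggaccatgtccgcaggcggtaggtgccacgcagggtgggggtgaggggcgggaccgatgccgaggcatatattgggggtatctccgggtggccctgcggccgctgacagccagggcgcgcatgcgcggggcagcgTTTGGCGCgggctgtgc
Ezh2: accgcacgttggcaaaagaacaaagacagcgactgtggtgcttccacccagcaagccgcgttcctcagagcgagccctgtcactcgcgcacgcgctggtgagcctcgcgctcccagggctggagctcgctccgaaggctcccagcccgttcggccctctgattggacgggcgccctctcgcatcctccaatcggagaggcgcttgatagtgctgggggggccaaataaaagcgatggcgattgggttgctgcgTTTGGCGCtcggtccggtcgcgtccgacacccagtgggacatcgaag
Suz12: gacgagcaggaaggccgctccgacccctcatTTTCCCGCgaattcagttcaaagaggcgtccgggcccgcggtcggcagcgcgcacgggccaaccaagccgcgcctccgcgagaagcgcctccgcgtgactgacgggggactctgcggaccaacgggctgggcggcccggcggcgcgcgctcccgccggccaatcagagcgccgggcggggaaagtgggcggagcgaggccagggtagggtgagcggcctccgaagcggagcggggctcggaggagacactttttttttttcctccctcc
The Uhrf1 window lies at chr17:56304063-56304362 on the plus strand, the second of 2 starts, and holds TTTCGCGC from base -185. The Dnmt1 window lies at chr9:20952574-20952873 on the minus strand, the last of 3 starts, and holds TTTCGCGC on the opposite strand from base -219 and TTTGGCGC from base 34. The Ezh2 window (chr6:47594981-47595280, minus strand) holds TTTGGCGC from base 4, and the Suz12 window (chr11:79992856-79993155, plus strand) holds TTTCCCGC from base -219. Gene-level RPKM does not tell which start was used. The number of CpG sites was 2 in the most upstream Dnmt1 window and 12 to 57 in the other windows, with a median of 30 over the 15 windows and of 7 over all promoter windows.

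Dnmt1 (chromosome 9, 20907206 to 20959888, build GRCm38 as for all positions), the maintenance methyltransferase, had 94.1, 69.0 and 71.2 RPKM in CML libraries and 61.3, 66.9 and 68.6 RPKM in naive libraries. The groups did not overlap, but CML replicate 2 exceeded naive replicate 3 by less than the spread within either group, and CML replicate 1 stood above the rest. The means were 78.1 ± 13.9 and 65.6 ± 3.80 RPKM (SD, n = 3 each), with a fold of 1.18 (95% interval 0.877 to 1.58, limma adjusted p = 0.694). When the libraries were forced to 1 common distribution (quantile normalization), the Dnmt1 values overlapped. The log2 fold change of 0.24 was 0.10 without CML replicate 1.

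Uhrf1 (chromosome 17, 56303337 to 56323486), which reads hemimethylated DNA and recruits Dnmt1, had the largest positive fold change of the 10 genes and ranked 820 among 13923. It had 10.9, 5.17 and 13.7 RPKM in CML libraries and 5.12, 4.35 and 5.71 RPKM in naive libraries. CML replicates 1 and 3 lay above all naive libraries, whereas CML replicate 2 lay within them. The value of CML replicate 2 rests on about 15 reads (exact Poisson 95% interval 2.82 to 8.32 RPKM, counting error only). The means were 9.90 ± 4.34 and 5.06 ± 0.68 RPKM (SD, n = 3 each), with a fold of 1.70 (95% interval 0.842 to 3.42, limma adjusted p = 0.61). Without CML replicate 2, the log2 fold change was 1.13 instead of 0.76 and Uhrf1 passed an unadjusted p under 0.05, but the limma adjusted p was 0.263. Without CML replicate 3, the log2 fold change was 0.50, with a limma adjusted p of 0.647.

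Dnmt3a (chromosome 12, 3801559 to 3914443), the main de novo methyltransferase of blood cells, had 36.5, 37.0 and 33.8 RPKM in CML libraries and 35.8, 26.6 and 30.4 RPKM in naive libraries. The groups overlapped through naive replicate 1, and the fold was 1.16 (95% interval 0.833 to 1.61, limma adjusted p = 0.737). Its log2 fold change of 0.21 was 0.32 without naive replicate 1 and 0.11 without naive replicate 2. Dnmt3b (chromosome 2, 153649411 to 153687730), its relative of early development, was low, with 1.601, 7.11 and 2.94 RPKM in CML libraries and 3.88, 3.14 and 1.71 RPKM in naive libraries. Its highest and its lowest value were both from CML mice. The high value of CML replicate 2 rests on about 25 reads (95% Poisson interval 4.52 to 10.3 RPKM), and the fold of 1.15 had an interval of 0.462 to 2.86 (limma adjusted p = 0.922). Dnmt3l, a cofactor without catalytic activity, was at 0 in all libraries.

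Of the TET enzymes, Tet3 was the highest and Tet1 the lowest in every library. Tet3 (chromosome 6, 83362373 to 83457208) had 40.3, 43.3 and 39.6 RPKM in CML libraries and 57.8, 56.4 and 48.1 RPKM in naive libraries. All CML libraries lay within 39.6 to 43.3 RPKM, below all naive libraries. The means were 41.1 ± 1.97 and 54.1 ± 5.29 RPKM (SD, n = 3 each), with a fold of 0.765 (95% interval 0.575 to 1.02, limma adjusted p = 0.542), the lowest p of the 10 genes. About 392 reads stood behind the value of CML replicate 2, and the log2 fold change was between -0.47 and -0.34 when each library was left out in turn. Tet1 (chromosome 10, 62804570 to 62887469) had 2.32, 2.44 and 0.51 RPKM in CML libraries and 4.23, 3.30 and 3.31 RPKM in naive libraries. Its groups did not overlap, but the CML values are low and rest on about 254, 29 and 17 reads. The fold of Tet1 was 0.562 (95% interval 0.245 to 1.29, limma adjusted p = 0.637). Its log2 fold change of -0.83 was -0.44 without CML replicate 3, -0.43 after quantile normalization and -1.33 with a pseudocount of 0.001. For Tet3 and Tet1, the groups overlapped after quantile normalization. Tet2 (chromosome 3, 133463677 to 133545136) had 34.0, 18.02 and 35.4 RPKM in CML libraries and 36.2, 24.6 and 31.3 RPKM in naive libraries, with overlapping groups and a fold of 0.924 (95% interval 0.561 to 1.52, limma adjusted p = 0.918). CML replicate 2 alone lay below all naive libraries, and without it the log2 fold change of Tet2 was 0.19 instead of -0.11.

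The summed levels of the DNMT and of the TET genes differed in opposite directions. This comparison was made after the values of the single genes had been seen and is therefore given without a test. Within their families, the mean RPKM differed most for Dnmt1 (78.1 in CML and 65.6 in naive Tregs) and Tet3 (41.1 and 54.1). Dnmt3a, Dnmt3b and Tet2 each overlapped between groups. The 3 DNMT genes summed to 132, 113 and 108 RPKM in CML libraries and to 101, 96.7 and 101 RPKM in naive libraries. The 3 TET genes summed to 76.6, 63.8 and 75.6 RPKM in CML libraries and to 98.3, 84.3 and 82.7 RPKM in naive libraries. In both sums, which depend on how libraries are scaled, the groups did not overlap. The ratio of the DNMT sum to the TET sum was 1.73, 1.77 and 1.43 in CML libraries and 1.03, 1.15 and 1.22 in naive libraries. Because the sums were separated in opposite directions, this ratio could not overlap. A scale factor for a whole library leaves it as it is. Quantile normalization, after which Dnmt1, Tet1 and Tet3 each overlapped, is not such a factor, and sums and ratios were not computed after it. Of all single genes tested, 17.1% did not overlap, and no such share was computed for sums or ratios. Dnmt3a to Tet3 gave 0.906, 0.853 and 0.854 in CML libraries and 0.619, 0.471 and 0.632 in naive libraries. Dnmt1 to Tet3 gave 1.59 to 2.34 and 1.06 to 1.43. This ratio could not overlap, because Dnmt1 was higher and Tet3 lower in every CML library. Dnmt1 to Tet2 overlapped (2.01 to 3.83 and 1.70 to 2.72). Dnmt1 made up 66.1% ± 5.07 of the DNMT sum in CML Tregs and 66.0% ± 4.63 in naive Tregs (SD, n = 3 each), and Tet3 made up 57.7% ± 8.89 and 61.3% ± 4.89 of the TET sum.

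**Figure D3:**
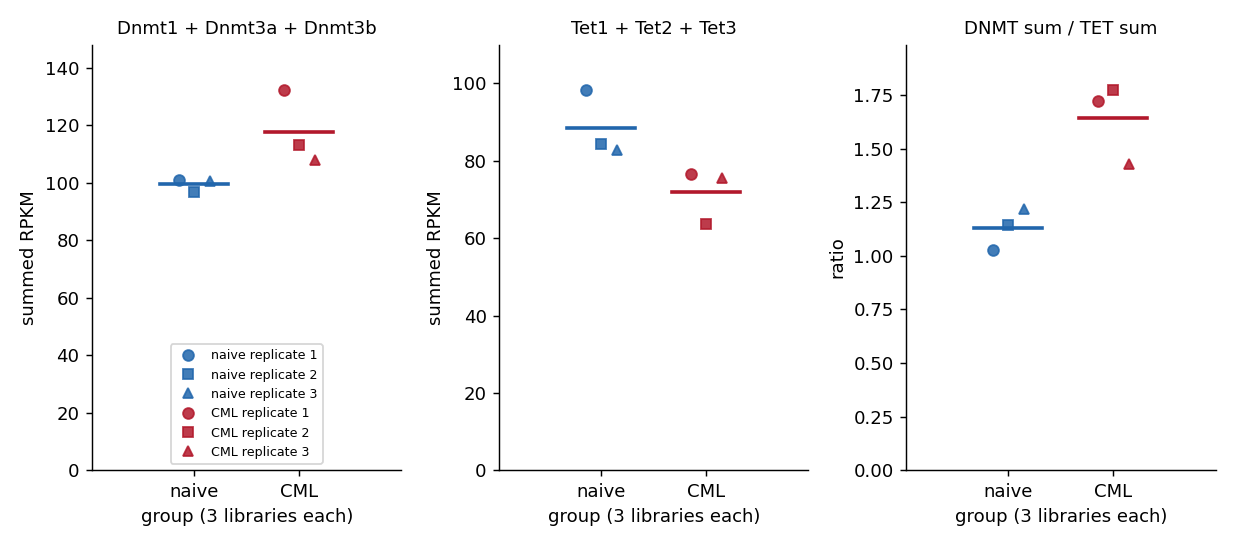
Summed RPKM of Dnmt1, Dnmt3a and Dnmt3b, summed RPKM of Tet1, Tet2 and Tet3, and the ratio of both sums in each library (axes start at 0, bars mark the mean of 3). The ratio lay between 1.43 and 1.77 in CML libraries and between 1.03 and 1.22 in naive libraries.

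Ezh2 (chromosome 6, 47530274 to 47595270), the catalytic subunit of PRC2, had 35.4, 48.6 and 54.7 RPKM in CML libraries and 33.1, 32.2 and 35.5 RPKM in naive libraries. CML replicates 2 and 3 were above all naive libraries, while CML replicate 1 lay just below naive replicate 3. The means were 46.2 ± 9.85 and 33.6 ± 1.71 RPKM (SD, n = 3 each), with a fold of 1.34 (95% interval 0.943 to 1.91, limma adjusted p = 0.579). Without CML replicate 1 the log2 fold change was 0.60 instead of 0.43, with a limma adjusted p of 0.271, and it was 0.30 without CML replicate 3 and 0.27 with libraries weighted by their quality (limma adjusted p = 0.573 and 0.677). Ezh1, which can take the place of Ezh2, had 58.0, 51.6 and 41.2 RPKM in CML libraries and 31.1, 53.5 and 44.2 RPKM in naive libraries. Ezh2 made up 37.9%, 48.5% and 57.0% of the sum of both in CML libraries and 51.6%, 37.6% and 44.6% in naive libraries. The log2 ratio of Ezh2 to Ezh1 was -0.13 ± 0.55 in CML Tregs and -0.31 ± 0.40 in naive Tregs (SD, n = 3 each), and the difference was within the spread between mice (exact 2-sided permutation test, p = 0.7). Summed, Ezh1 and Ezh2 had 93.4 to 100.1 RPKM in CML libraries and 64.3 to 85.8 RPKM in naive libraries. This sum was not among the planned comparisons, was not tested and depends on how libraries are scaled. Of all single genes tested, 17.1% did not overlap, and no such share was computed for sums. Each of the genes alone overlapped between groups (limma adjusted p = 0.759 for Ezh1 and 0.579 for Ezh2).

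Eed (chromosome 7, 89954654 to 89980976), the subunit that binds methylated lysine 27, had 37.9, 14.8 and 53.9 RPKM in CML libraries and 27.9, 49.6 and 56.2 RPKM in naive libraries. It varied within both groups, and the groups overlapped (fold 0.739, 95% interval 0.346 to 1.58, limma adjusted p = 0.767). The value of CML replicate 2 rests on about 25 reads (95% Poisson interval 9.44 to 21.5 RPKM). Suz12 (chromosome 11, 79993106 to 80034123), the scaffold of the complex, had 60.2, 25.3 and 59.7 RPKM in CML libraries and 48.4, 60.2 and 51.0 RPKM in naive libraries (fold 0.854, 95% interval 0.496 to 1.47, limma adjusted p = 0.836). Here too, only CML replicate 2 was below the naive libraries, with about 92 reads (95% Poisson interval 20.5 to 31.1 RPKM). Without this library, the log2 fold changes of Eed and Suz12 were 0.08 and 0.18 instead of -0.44 and -0.23. The core subunits were therefore unequal within CML replicate 2, in which Ezh2 made up 54.7% of the sum of Ezh2, Eed and Suz12, compared with 22.7% to 32.5% in the other 5 libraries.

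Uhrf1, Dnmt1 and Ezh2 are transcribed more in cycling cells, and the levels of DNA replication genes are therefore given beside theirs. The 38 S phase replication genes had a mean log2(RPKM + 1) of 3.75, 3.25 and 4.03 in CML libraries and 3.12, 3.25 and 3.35 in naive libraries. As for Uhrf1, CML replicates 1 and 3 were above the naive libraries and CML replicate 2 was within them. Ezh2 did not share this pattern, with CML replicates 2 and 3 above the naive libraries and CML replicate 1 within them. Dnmt1 was above the naive libraries in every CML library, and most in CML replicate 1. The median log2 fold change of the list was 0.47, with 7 genes higher and 1 lower at an unadjusted p under 0.05 and a fold of at least 1.5, and 0 at the adjusted p. Among the higher genes, with their log2 fold changes, were the cyclin gene Ccne2 (1.69), Mcm10 (1.505), which acts in origin firing, and Chaf1a of the chromatin assembly factor (1.77, with 10.1 ± 0.94 and 2.83 ± 2.60 RPKM, limma adjusted p = 0.372), and the most abundant after Slbp was the helicase subunit Mcm6 (87.8 ± 38.1 and 58.5 ± 5.43 RPKM, limma adjusted p = 0.666). The 18 mitosis genes had a median log2 fold change of 0.59, with 4 higher and 0 lower, among them the mitotic kinase Cdk1 (17.6 ± 9.46 and 5.87 ± 2.40 RPKM, limma adjusted p = 0.396). Without CML replicate 2, 14 S phase genes were higher and 2 lower, and 9 mitosis genes were higher and 0 lower, while the higher genes among all 13923 tested numbered 677 instead of 363. After quantile normalization, 11 S phase genes were higher and 1 lower, and 8 mitosis genes were higher and 0 lower, with 624 of all genes tested higher. The proliferation marker Mki67 had 83.2, 44.2 and 103 RPKM in CML libraries and 43.9, 43.4 and 46.7 RPKM in naive libraries. Relative to the mean of the S phase list, Uhrf1 was at -0.32 ± 0.27 in CML Tregs and -0.64 ± 0.17 in naive Tregs on the log2 scale (exact 2-sided permutation test, p = 0.3). For Dnmt1 the relative level was 2.61 ± 0.41 and 2.82 ± 0.04 (exact 2-sided permutation test, p = 0.8), and for Ezh2 it was 1.86 ± 0.48 and 1.88 ± 0.09 (exact 2-sided permutation test, p = 0.9). The log2 ratios of Dnmt1 to Dnmt3a, Uhrf1 to Dnmt1 and Tet2 to Tet3 differed by 0.02, 0.53 and 0.27 between groups (exact 2-sided permutation tests, p = 0.9, 0.3 and 0.6). Of these 7 relative levels and ratios, all overlapped between groups and had a Benjamini-Hochberg adjusted p of 0.9, in a design whose smallest exact p is 0.1. The part of cell cycle genes in the values of Uhrf1, Dnmt1 and Ezh2 was otherwise not tested.

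**Figure D4:**
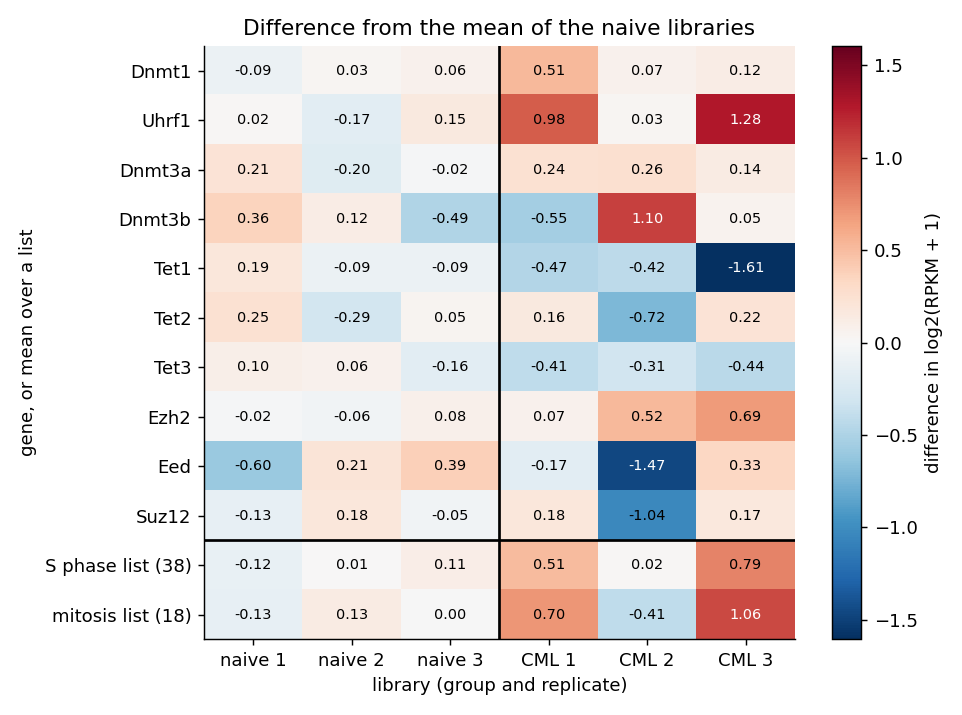
Difference in log2(RPKM + 1) from the mean of the naive libraries for the 10 genes and for the mean over 38 S phase and 18 mitosis genes, by library (red higher, blue lower). Among the CML libraries, Uhrf1 and the S phase mean share their order, with 0.98 and 0.51 in CML replicate 1, 0.03 and 0.02 in CML replicate 2, and 1.28 and 0.79 in CML replicate 3. Ezh2 (0.07, 0.52 and 0.69) and Dnmt1 (0.51, 0.07 and 0.12) did not have this order, and Tet3 was at -0.41, -0.31 and -0.44.

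The wider pathway was described with 7 lists. Of their 79 tested genes, 1 was higher and 3 were lower in CML Tregs at an unadjusted p under 0.05 and a fold of at least 1.5. By the same rule, 2.61% of all genes tested were higher and 5.94% were lower. Of the 79 genes, 0 passed the adjusted p. Of the 9 PRC2 partners tested, 0 were called, and the most abundant were Aebp2 (106 ± 18.8 and 89.4 ± 7.82 RPKM) and the histone-binding Rbbp4 (70.2 ± 29.0 and 74.5 ± 5.602 RPKM). Of the 20 genes of PRC1, the complex that ubiquitinates histone H2A, 6 had all CML values below and 1 had all CML values above the naive values (30% and 5% of the list, compared with 12.2% and 4.84% of all genes tested), and the median log2 fold change was -0.23. Cbx7, a reader of methylated lysine 27, had 56.9, 36.7 and 62.0 RPKM in CML libraries and 99.4, 112 and 74.3 RPKM in naive libraries (log2 fold change -0.88, limma adjusted p = 0.309). Pcgf6, a subunit of a variant PRC1, had 11.1, 3.06 and 4.95 RPKM in CML libraries and 12.1, 15.55 and 16.1 RPKM in naive libraries (log2 fold change -1.22, limma adjusted p = 0.460). Cbx7 and Pcgf6 were the 2 PRC1 genes called at the unadjusted p. Kdm2b, which brings PRC1 to unmethylated CpG islands, was the 1 PRC1 gene above the naive values throughout (there were 3 after quantile normalization), with 52.0, 60.1 and 65.7 RPKM in CML libraries and 40.4, 38.9 and 42.7 RPKM in naive libraries (log2 fold change 0.53, limma adjusted p = 0.412). Kdm2b, and Kdm6b below, are named after their values were seen.

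Of the 5 tested genes for enzymes that remove methyl groups from lysine 27 or ubiquitin from H2A, or for their cofactors, 0 were called. All 5 had a log2 fold change below 0, as had 8946 of the 13923 genes tested. Kdm6b, a demethylase of lysine 27, was lower in every CML library (31.9, 22.03 and 29.6 RPKM, compared with 38.9, 33.4 and 35.1 RPKM, limma adjusted p = 0.632). The most abundant of the 5 were Asxl1 at 112 ± 26.7 and 126 ± 8.95 RPKM and Asxl2 at 76.5 ± 10.5 and 86.3 ± 3.94 RPKM. Of the 9 methyl-CpG readers, 0 were called, and Mbd2 had 133 ± 7.99 and 139 ± 11.8 RPKM. Of the 9 partners of maintenance methylation, Lig1, the ligase of replication, was higher (33.1, 27.6 and 39.7 RPKM in CML libraries and 24.99, 17.4 and 18.6 RPKM in naive libraries, log2 fold change 0.69, limma adjusted p = 0.442). Hdac2, a histone deacetylase, was lower (25.5, 16.1 and 22.4 RPKM in CML libraries and 34.8, 32.3 and 34.3 RPKM in naive libraries, log2 fold change -0.66, limma adjusted p = 0.442). Usp7, which deubiquitinates Uhrf1 and Dnmt1, had 102 ± 17.3 and 109 ± 7.06 RPKM. Of the 12 demethylation partners, 0 were called, and Ogt, which binds TET proteins, had 144 ± 10.9 and 147 ± 6.92 RPKM. Of the 15 genes that supply methyl donor and cofactors, 0 were called, and the subunits of methionine adenosyltransferase Mat2a and Mat2b had 36.4 ± 14.9 and 37.2 ± 1.78 RPKM and 69.0 ± 20.9 and 59.8 ± 9.90 RPKM.

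**Figure D5:**
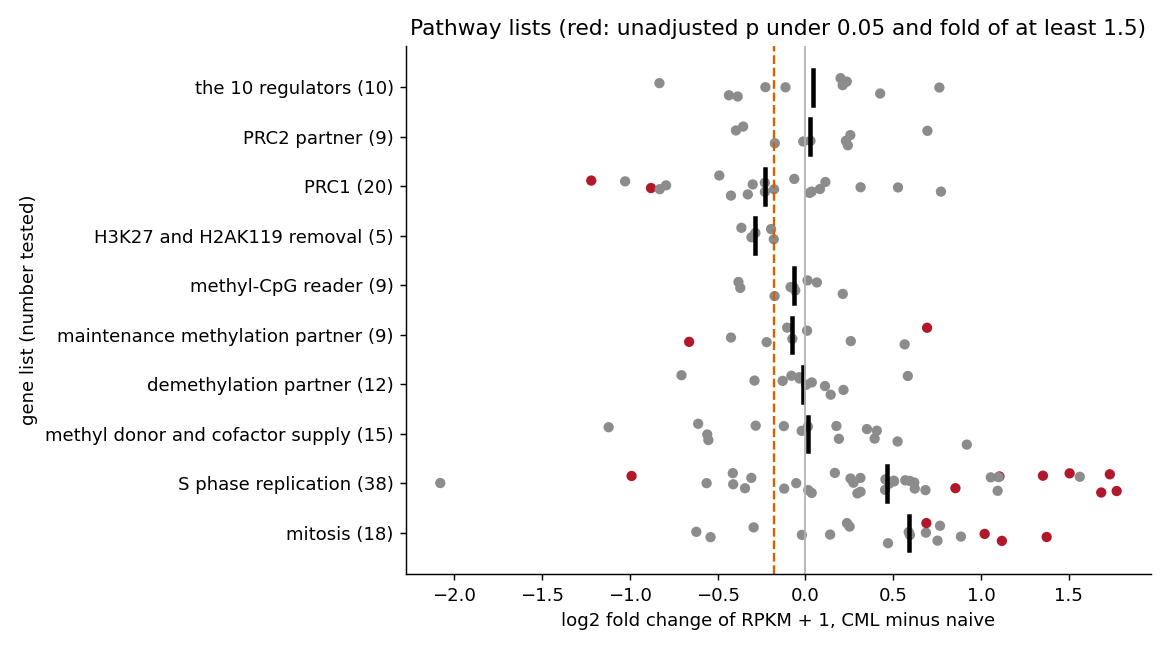
limma log2 fold changes of RPKM + 1 (CML minus naive) for each tested gene (points) of the 10 regulators and 9 lists, with the list median (black bar) and the median of all genes tested (dashed, -0.18). The medians of the S phase (0.47) and mitosis (0.59) lists lie to the right of the others, and the PRC1 median (-0.23) lies near that of all genes.

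Most genes listed as silenced by DNA methylation or Polycomb were at 0 in both groups. Of 17 germline genes whose promoters are methylated in somatic cells, 12 were at 0 in all libraries, among them Dazl, Mael and Sycp3, and 0 averaged 1 RPKM or more. The sum over the 17 genes was 0.855 to 2.24 RPKM in CML libraries and 0.606 to 2.80 RPKM in naive libraries. Of 22 developmental and cell cycle inhibitor genes repressed by Polycomb, 18 were at 0 in all libraries, among them Hoxa9, Pax6 and Gata4. The sum was 5.57, 0 and 0 RPKM in CML libraries and 2.44, 6.85 and 2.73 RPKM in naive libraries. Only Cdkn1c, a cell cycle inhibitor, reached a mean of 1 RPKM, with 0.503, 0 and 0 RPKM in CML libraries and 0.554, 6.85 and 2.73 RPKM in naive libraries. Its CML values lay below all naive values, but they rest on few or no reads. As the only tested gene of this list, Cdkn1c was lower at the unadjusted p and fold rule, as were 5.94% of all genes tested. Its log2 fold change was -1.64, with a limma adjusted p of 0.506. Cdkn2a had 0.258 RPKM in CML replicate 1, 1.89 RPKM in naive replicate 1 and 0 in the other libraries, and Cdkn2b had 4.68 RPKM in CML replicate 1 and 0 in the other libraries.

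The genes whose log2(RPKM + 1) followed that of a regulator most closely over the 6 libraries were sought among the 10046 genes that averaged 5 RPKM or more. For Uhrf1 they were Trav14-1, 1700017B05Rik and Prkch (Pearson r = 0.996, 0.994 and 0.994). For Ezh2 they were Galnt1, Gm35915 and Pfkp (r = 0.993, 0.991 and 0.988), and for Tet3 they were Pmm2, Cnst and 4930581F22Rik (r = 0.993, 0.993 and 0.981). For Dnmt1 they were Ormdl3, Rab10 and Aldh18a1 (r = 0.971, 0.969 and 0.961). With only 6 libraries that share depth and group, r exceeded 0.95 for 64 genes with Uhrf1 and for 312 genes with Suz12, so that these values are descriptions.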

How the data were processed

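Each of 3 CML and 3 naive mice gave 1 RNA library of BM Tregs. The authors made SMART-Seq v4 libraries, read them single-end on a NextSeq instrument, assembled reads in SeqMan NGen and quantified them in ArrayStar (mouse build GRCm38 or mm10 per the submitters' processing notes). The deposited values were taken as RPKM, a unit not named in the sources used here, because value times length of 1297 short RNA genes fell near multiples of 1 step more often than by chance (33.5% to 65.4% of products in a library within 0.05 of a whole number, or 30.5% to 59.0% without the products at the step itself, with 10% by chance). Read numbers per gene are estimates from these steps and the longest GENCODE M21 transcript. Their intervals cover counting error only. The value 0.001 was set to 0. Groups and replicate numbers came from the sample titles. The p-values set differences between groups against the spread between libraries of different mice, which includes counting error. No batch is labeled.

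CML and naive Tregs were compared across all genes with limma 3.58.1 (R 4.3.3, trended eBayes, no replicate block) on log2(RPKM + 1). The 13923 genes that averaged 1 RPKM or more were tested, with Benjamini-Hochberg adjustment. Tests for counts do not apply to RPKM. Ratios were compared by exact permutation of the 6 libraries, and other steps used Python 3.11.15. Members and lists were chosen with earlier results of these data known. Named list genes are those called or most abundant in their list. Promoters came from RefSeq. Alternatives varied pseudocount, filter, scaling, libraries, block, variance prior, weights and features.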

Additional observations from a re-analysis of the deposited data

How the results depend on the processing

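The 10 genes gave 158 fits under the alternatives, and 0 of them passed the adjusted p (lowest limma adjusted p 0.263). The sign changed in 9 fits, all of Dnmt3b, Tet2, Suz12 or Eed. With weights for each library, the log2 fold changes of Dnmt3b, Tet2 and Suz12 were -0.068, 0.085 and 0.019. Without CML replicate 2, those of Dnmt3b, Tet2, Eed and Suz12 were -0.25, 0.19, 0.079 and 0.18. That of Tet2 was 0.0099 without naive replicate 1, and that of Dnmt3b was -0.04 without naive replicate 3. Over all fits with 1 library left out, Dnmt3b ranged from -0.25 to 0.57, Tet2 from -0.28 to 0.19, Eed from -0.82 to 0.079 and Suz12 from -0.43 to 0.18. Uhrf1, Ezh2, Dnmt1, Dnmt3a, Tet1 and Tet3 kept their sign in all fits made. With a mean of at least 5 RPKM, Dnmt3b and Tet1 were not fitted.

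The number of the 10 genes at an unadjusted p under 0.05 and a fold of at least 1.5 was 1 (Uhrf1) with quantile normalization and with library weights. It was 0 to 1 when each library was left out in turn (Uhrf1 without CML replicate 2 and Ezh2 without CML replicate 1). Of the 13923 genes tested, 1214 met this rule with quantile normalization and 1268 with library weights. It was met by 1458 of them without CML replicate 2 and by 1778 without CML replicate 1. Tet3, whose fold stayed under 1.5, also had an unadjusted limma p under 0.05 without the filter, with a pseudocount of 0.001, and without CML replicate 2 or naive replicate 3. The number without overlap was 1 (Uhrf1) with quantile normalization, 2 (Tet1 and Uhrf1) with 75th percentile scaling and 3 to 5 when libraries were left out. Of all genes tested, 8.88% were higher and 9.12% lower without overlap after quantile normalization. These shares were 13.9% and 15.9% without CML replicate 2, where 4 of the 10 genes did not overlap. They were not computed for 75th percentile scaling or for the other left-out libraries. The median of the 10 genes stayed between -0.08 and 0.18. The 79 pathway genes had 4 calls at the unadjusted p, 5 with quantile normalization and 7 without CML replicate 2. All genes tested had 1190, 1214 and 1458 calls in these 3 fits. The log2 level of Uhrf1 relative to the S phase list differed by 0.62 with a pseudocount of 0.001 and by 0.32 with 1.

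Over all genes, 24 calls at the adjusted p became 0 with a pseudocount of 0.001, 1 without a filter, 53 after either quantile or 75th percentile scaling, 11 without a trend, 45 with library weights, 12 without small RNA and T cell receptor features, and 0 to 17 when a library was left out. Quantile normalization moved the all-gene median log2 fold change from -0.18 to -0.0068. With the replicate block, 1 gene was called over all genes and 0 of the 10. Same-numbered CML and naive libraries did not deviate together (correlations of -0.0048, -0.0016 and -0.019). The labels name no pairing beyond the number. With 3 libraries per group and counting error in the shallow ones, these correlations cannot settle whether libraries were paired. The causes of these changes were not tested. In CML replicate 2, Uhrf1, Dnmt3b, Eed and Tet1 rest on about 15, 25, 25 and 29 reads, and Tet1 in CML replicate 3 on about 17.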
